A study of Saccharomyces cerevisiae with 14 samples.

Results

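The ergosterol pathway makes the main sterol of yeast membranes, and 30 of its genes were followed here across messenger RNA profiles of Saccharomyces cerevisiae. The genes were chosen by name for their place in the pathway, although earlier results of these data were known when the choice was made. They are 24 genes of the enzymes and helpers that turn acetyl-CoA into ergosterol, 2 sterol-sensing regulators, and 4 genes of sterol esters and sterol transport. All 30 were found among the 6664 genes of the deposited table, and all 30 passed the filter on low values. The unit is FPKM, a read count scaled both for gene length and for library size, so that levels can be set side by side between genes.

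Wild-type cells were BY4741, a standard laboratory strain with the genotype MATa his3Δ1 leu2Δ0 met15Δ0 ura3Δ0. Deletion cells carried the same markers and fpt1::KanMX, a replacement of FPT1, whose product is known to associate with tRNA genes. There were 3 wild-type and 4 deletion samples in YEPD, a rich glucose medium, and as many after 2 h in ethanol at 30 °C. Deletion replicates 1 to 3 were strain NKI5633 and replicate 4 was strain NKI5620, and all wild-type samples were 1 strain. This strain background is known to carry a transposon in HAP1, a heme-responsive regulator of sterol genes. Each sample was 1 stranded poly(A) library read as 65-base single reads. In bulk RNA, fewer cells that express a gene and less RNA per cell cannot be told apart.

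Yeast builds ergosterol from acetyl-CoA through mevalonate, isoprenoid units and squalene. The late steps need oxygen, and several of the enzymes hold heme or iron. When sterol runs short, the transcription factors Upc2 and Ecm22 are known to bind short sterol response elements and raise many ERG genes. Surplus sterol is stored as esters made by Are1 and Are2.

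The members fall into 5 groups by role. The mevalonate arm holds ERG10 (YPL028W), ERG13 (YML126C), HMG1 (YML075C), HMG2 (YLR450W), ERG12 (YMR208W), ERG8 (YMR220W) and MVD1 (YNR043W). The isoprenoid and squalene arm holds IDI1 (YPL117C), ERG20 (YJL167W), ERG9 (YHR190W), ERG1 (YGR175C) and ERG7 (YHR072W). The late arm holds ERG11 (YHR007C), NCP1 (YHR042W), ERG24 (YNL280C), ERG25 (YGR060W), ERG26 (YGL001C), ERG27 (YLR100W), ERG28 (YER044C), ERG6 (YML008C), ERG2 (YMR202W), ERG3 (YLR056W), ERG5 (YMR015C) and ERG4 (YGL012W). The regulators are UPC2 (YDR213W) and ECM22 (YLR228C), and the genes of sterol esters and transport are ARE1 (YCR048W), ARE2 (YNR019W), ARV1 (YLR242C) and HES1 (YOR237W). In the R64 assembly, the build called sacCer3, the coding region of ERG28 lies on chromosome V from 237570 to 238016 on the minus strand, that of ERG11 on chromosome VIII from 120091 to 121683 on the minus strand, that of ERG25 on chromosome VII from 610564 to 611493 on the plus strand and that of ERG4 on chromosome VII from 472855 to 474276 on the plus strand.

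FPT1 was at 51.9 to 52.4 FPKM in wild-type glucose libraries and at 136 to 158 FPKM in wild-type ethanol libraries, and no deletion library exceeded 0.412 FPKM. The marker genes removed from this strain background, LEU2, URA3 and MET17, had a listed value of 0 throughout. The glucose transporter gene HXT1 lay at 132 to 183 FPKM in glucose and at 0.501 to 0.891 FPKM in ethanol, and the ethanol dehydrogenase gene ADH2 at 2.02 to 4.27 and 271 to 803 FPKM. Library totals were 1649740 to 2027950 FPKM.

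In wild-type glucose cells most of the sterol genes were among the more abundant messengers. HMG2 and ARE2 lay near the middle of all genes (percentiles 51.3 and 51.2), and ECM22, UPC2 and HES1 below it (39.7, 27.3 and 22.4). ERG11, the heme-containing lanosterol demethylase that azole drugs block, was the most abundant, at 1015 ± 49.6 FPKM (SD, n = 3), which is percentile 96.1 among all genes. ERG25, a methyl sterol oxidase, followed at 801 ± 23.9 FPKM, then the sterol isomerase gene ERG2 at 761 ± 14.6 FPKM. The squalene epoxidase gene ERG1 and the desaturase gene ERG3 came next, at 693 ± 24.7 and 692 ± 14.9 FPKM, and did not differ beyond their spread. The lowest were the regulators ECM22 at 33.9 ± 0.434 and UPC2 at 18.7 ± 0.284 FPKM and HES1, a lipid-binding protein of the oxysterol-binding family, at 12.3 ± 0.254 FPKM. No member fell below 9.97 FPKM in any library. The coefficient of variation within wild-type glucose had a median of 3.85% over the members and 6.21% over all genes tested. In the other groups the members' median was 5.16% to 6.49%, against 7.07% to 9.91% over all genes tested.

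**Figure D1:**
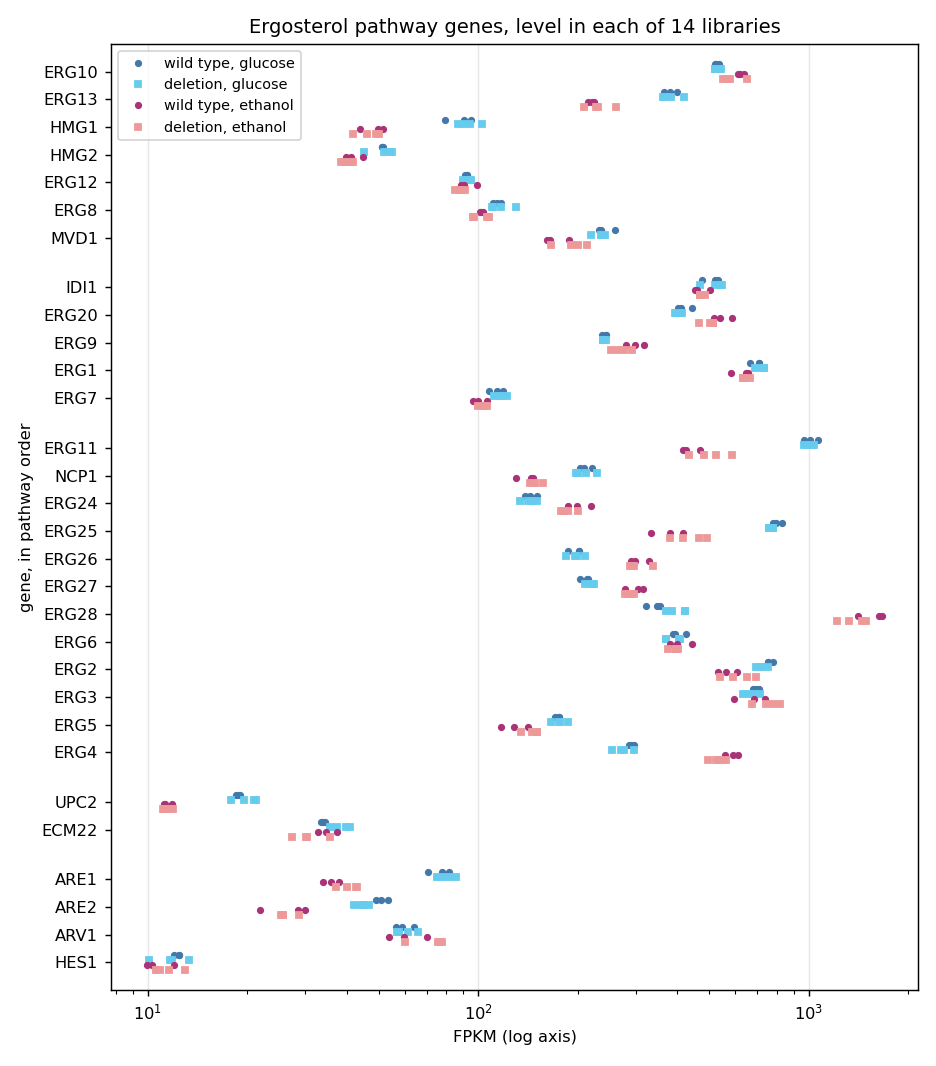
FPKM of each of the 30 genes (rows, in pathway order with a gap between role groups) in each of the 14 libraries, on a log axis; 1 point is 1 library, and colour and shape give the group. The wild-type libraries of the 2 media do not overlap for 23 genes, and deletion and wild type do not overlap for 4 genes in glucose and 1 in ethanol; ERG28 covers the widest range, from 322 to 1664 FPKM.

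The first question was what 2 h in ethanol changed in the sterol genes of wild-type cells. The pathway did not move as a block. ERG28, a membrane protein of the late steps, rose from 341 to 1571 FPKM (4.59-fold) and ERG4, the last reductase, from 291 to 585 FPKM (2.01-fold). ERG11 fell from 1015 to 437 FPKM, ERG25 from 801 to 377 FPKM and the esterification gene ARE1 from 76.5 to 35.9 FPKM, while the squalene steps between moved by small amounts. Of 30 members, 8 rose, 14 fell and 8 did not pass the test. The summed level of the 30 genes was 8965 ± 169 FPKM in glucose and 9217 ± 332 FPKM in ethanol (SD, n = 3 each), while the share of that sum held by ERG28 went from 3.81% ± 0.259 to 17% ± 1.22. Without ERG28 the sum was 8625 ± 186 and 7646 ± 264 FPKM.

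The test was limma on log2(FPKM + 1), fitted over all 14 libraries and 6267 genes with Benjamini-Hochberg adjustment and a threshold of 0.05. Among all genes tested 75.3% were called, 50.5% as higher and 24.8% as lower, so the members were called about as often as other genes, 73.3%, and more of them as lower, 46.7%. A called log2 change of at least 1 was found for 5 members, or 16.7%, and for 33.5% of all genes tested. The libraries of the 2 media did not overlap for 23 members, 76.7% against 77.3% of all genes tested. The median change was -0.15 for the members and 0.31 for all genes, and this shift of all genes matters for the direction of small changes. When each library was centred on its median, 4 members were higher and 22 lower (15.4% of the called members higher, against 36.4%), where 37.4% of all genes were called higher and 37.7% lower. With quantile normalization 3 members were higher and 25 lower (10.7%), where 35.2% of all genes were called higher and 39.9% lower. ERG26, ERG28 and ERG4 were called higher under all 3 scalings.

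**Figure D2:**
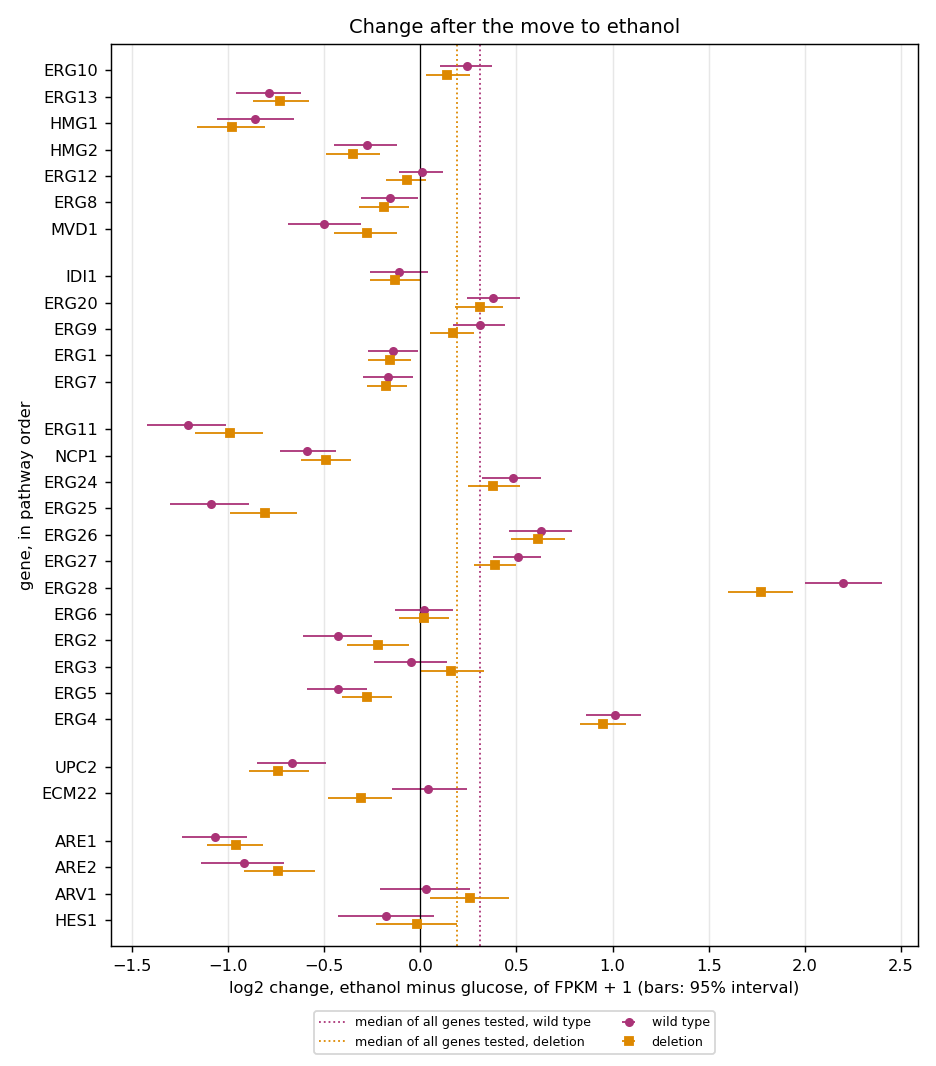
Log2 change of FPKM + 1 from glucose to ethanol for each gene, wild type as circles and deletion as squares, with 95% intervals from limma; dotted lines mark the median change of all genes tested, 0.31 in wild type and 0.19 in deletion cells. ERG28 and ERG4 lie to the right of both lines and ERG11, ERG25, HMG1, ARE1 and ARE2 far to the left, while ERG10, between 0 and the dotted line in each strain, has a change below 0 when libraries are scaled to a common median.

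The mevalonate arm, which makes the first isoprenoid unit, mostly fell. Of its 7 genes 4 fell, 1 rose and 2 did not pass, where 24.8% of all genes tested were called lower and 50.5% higher. HMG1, the main form of the rate-limiting HMG-CoA reductase, was at 95, 79.5 and 90.5 FPKM in wild-type glucose libraries and at 43.8, 51.4 and 49.7 FPKM in ethanol libraries. The groups did not overlap, and the log2 change was -0.86 ± 0.09 (SE, limma adjusted p = 1.1e-06). HMG2, the second reductase, was at 51.4, 51.1 and 51.2 FPKM in glucose and at 41.3, 39.8 and 44.8 FPKM in ethanol. It fell less, by 0.28 ± 0.08 on the log2 scale (limma adjusted p = 0.0039). ERG13, the HMG-CoA synthase before them, fell by 0.79 ± 0.08 and MVD1, the decarboxylase at the end of the arm, by 0.5 ± 0.09 (limma adjusted p = 4.4e-07 and 1.6e-04). ERG10, the thiolase that opens the pathway, was at 520.5, 526 and 535.8 FPKM in glucose and at 635.2, 618.9 and 610 FPKM in ethanol. Its log2 change of 0.24 ± 0.06 (limma adjusted p = 0.0034) was below the shift of all genes, and with median scaling it was -0.09. The kinase genes ERG12 and ERG8 did not pass, at 0.01 ± 0.05 and -0.16 ± 0.07 (limma adjusted p = 0.92 and 0.057).

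The 5 genes from isopentenyl pyrophosphate to lanosterol stayed within 0.4 log2 units of their glucose level. ERG20, the farnesyl pyrophosphate synthase at the branch to other isoprenoids, was at 402.9, 410.8 and 443.6 FPKM in glucose and at 585.2, 539.7 and 515.3 FPKM in ethanol. All ethanol libraries were higher, by 0.38 ± 0.06 on the log2 scale (limma adjusted p = 9.0e-05). This was 0.07 above the shift of all genes, and the change was 0.06 with median scaling and -0.17 with quantile normalization. The squalene synthase gene ERG9 also rose, by 0.31 ± 0.06, which equals that shift. ERG7, the lanosterol synthase, was at 119.2, 107.9 and 114.1 FPKM in glucose and at 106.5, 99.8 and 96.7 FPKM in ethanol, and fell by 0.17 ± 0.06 (limma adjusted p = 0.018), with groups that did not overlap. That call was lost without wild-type glucose replicate 1 (-0.13), wild-type ethanol replicate 2 (-0.16) or wild-type ethanol replicate 3 (-0.14), and in a fit of the wild-type groups alone (-0.17). ERG1 fell by 0.14 ± 0.06 (limma adjusted p = 0.043), a call that was lost under 12 of the alternative settings, among them the replicate number as a block, robust estimation, a fit of the wild-type groups alone and the omission of wild-type glucose replicate 1 (-0.13), wild-type glucose replicate 3 (-0.13) or wild-type ethanol replicate 3 (-0.09). The isomerase gene IDI1 did not pass, at -0.11 ± 0.07.

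The late arm, from lanosterol to ergosterol, was split, with 5 genes higher, 5 lower and 2 that did not pass. Among all genes tested 50.5% were called higher and 24.8% lower. ERG11 was at 969.1, 1008 and 1067 FPKM in wild-type glucose libraries and at 417.6, 425.2 and 468.2 FPKM in ethanol libraries. It fell by 1.21 ± 0.09 on the log2 scale (limma adjusted p = 4.0e-08), the largest fall of any member. NCP1, the reductase that passes electrons to Erg11, fell too, by 0.59 ± 0.07 (limma adjusted p = 2.6e-06). ERG24, the sterol reductase after Erg11, was higher by 0.48 ± 0.07 (limma adjusted p = 2.9e-05), and by 0.16 with median scaling without passing.

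The enzymes that next strip methyl groups from the sterol ring work as a complex, and their genes went in opposite directions. ERG25, the oxidase of this complex, fell by 1.09 ± 0.09 (limma adjusted p = 1.2e-07), from 781.7, 794.2 and 827.9 FPKM to 381, 333.4 and 415.7 FPKM. ERG26, the decarboxylating dehydrogenase, rose by 0.63 ± 0.07 (limma adjusted p = 3.2e-06), from 186.6, 202.4 and 202.5 FPKM to 327.8, 289.4 and 297.4 FPKM. ERG27, the keto reductase, was higher by 0.51 ± 0.06 (limma adjusted p = 1.6e-06), although with quantile normalization the change was 0.06 and did not pass. ERG28, a membrane protein known to hold these enzymes together, was at 354.4, 346.7 and 321.9 FPKM in glucose and at 1664, 1638 and 1412 FPKM in ethanol. Every ethanol library lay above every glucose library, the log2 change was 2.20 ± 0.09 (limma adjusted p = 1.4e-10), and with 1571 ± 139 FPKM (SD, n = 3) ERG28 became the most abundant of the 30 messengers. Of all 6267 genes tested, 6.64% rose at least as much.

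ERG28 is the shortest coding region of the 30, at 447 bases, and short genes as a class moved with it. The 522 genes tested with a coding region of 350 to 550 bases had a median change of 0.84, and 9.96% of them rose at least as much as ERG28. The part of gene length in the rise of ERG28 was not tested. No protein-coding gene of RefSeq overlaps ERG28, and among the members only ARE1 overlaps another such gene, YCR050C. Overlap with other kinds of genes, or with genes absent from RefSeq, was not searched.

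The last steps of the pathway also differed. ERG4, the final sterol reductase, was at 285.1, 290 and 296.6 FPKM in wild-type glucose libraries and at 609.4, 589.4 and 557 FPKM in ethanol libraries, a rise of 1.01 ± 0.07 (limma adjusted p = 8.3e-09). The isomerase gene ERG2 and the heme-containing desaturase gene ERG5 each fell by 0.43 (limma adjusted p = 3.5e-04 and 7.2e-05). The methyltransferase gene ERG6 and the desaturase gene ERG3 were at 0.02 ± 0.07 and -0.05 ± 0.09 and did not pass. Both lay below the shift of all genes, and with median scaling ERG6 was called lower at -0.30 and ERG3 at -0.37.

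**Figure D3:**
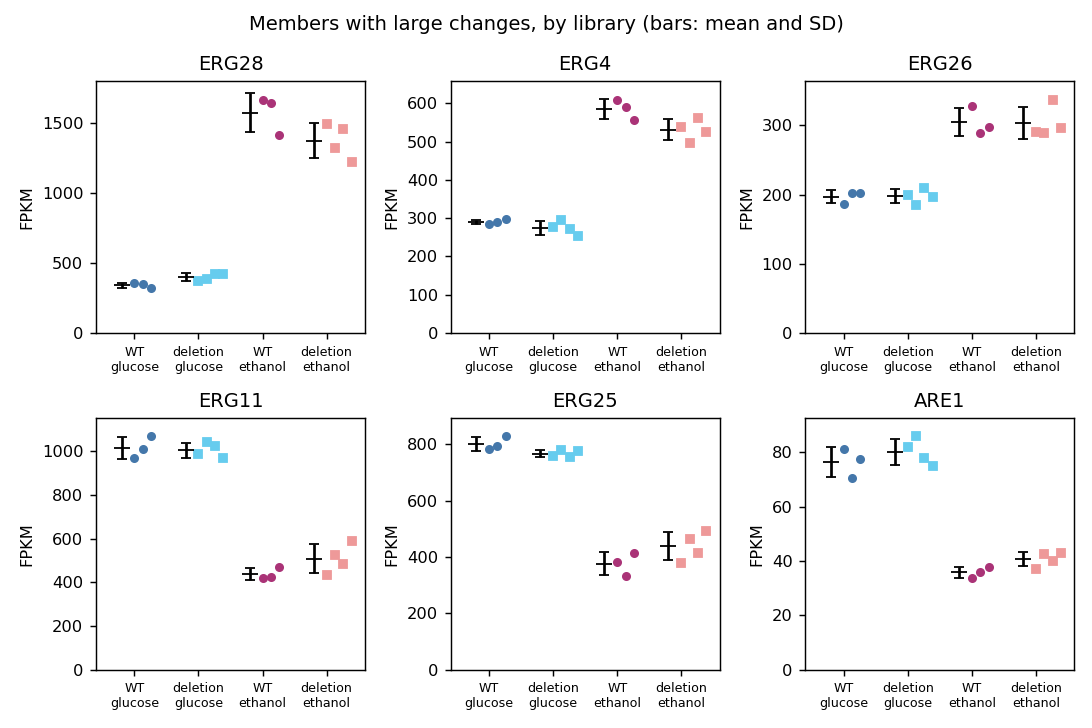
FPKM by library for ERG28, ERG4, ERG26, ERG11, ERG25 and ARE1 in the 4 groups; points run from replicate 1 on the left to the last replicate on the right, and the bar beside them is the mean and SD of the group. In every panel the glucose and ethanol libraries are separate in both strains, while deletion and wild type lie close together, and deletion ethanol replicate 4 is the ethanol library nearest to the glucose level for ERG28, ERG11, ERG25 and ARE1.

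Of the regulators, UPC2, the stronger sterol-responsive activator, fell and ECM22, its paralogue, did not pass. UPC2 was at 18.5, 19 and 18.7 FPKM in wild-type glucose libraries and at 11.8, 11.3 and 11.2 FPKM in ethanol libraries, a log2 change of -0.67 ± 0.08 (limma adjusted p = 4.2e-06) with no overlap. ECM22 was at 33.5, 34.3 and 33.9 FPKM in glucose and at 34.7, 37.4 and 32.8 FPKM in ethanol, and these groups overlapped, at 0.04 ± 0.09 (limma adjusted p = 0.68). Against the shift of all genes it was lower by 0.26, and with median scaling it was called lower at -0.28.

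Both sterol acyltransferase genes fell. ARE1 was at 81.4, 70.5 and 77.7 FPKM in wild-type glucose libraries and at 33.9, 35.8 and 37.9 FPKM in ethanol libraries, with a log2 change of -1.07 ± 0.08 (limma adjusted p = 2.2e-08). ARE2 was at 49.2, 53.4 and 50.8 FPKM in glucose and at 30.0, 21.8 and 28.4 FPKM in ethanol, with a log2 change of -0.92 ± 0.10 (limma adjusted p = 1.1e-06). For both genes the groups were far apart. ARV1, a membrane protein of sterol transport, was at 58.8, 63.9 and 56.4 FPKM in glucose and at 70.2, 53.7 and 59.6 FPKM in ethanol, and the groups overlapped (0.03 ± 0.11, limma adjusted p = 0.84). HES1 did not pass either, at -0.18 ± 0.11 (limma adjusted p = 0.17).

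The balance within 3 gene pairs was compared between media and strains by an exact permutation test, and no difference passed after adjustment. No comparison could pass the threshold whatever the values. The wild-type comparison of media, 3 libraries against 3, cannot go below an exact permutation p of 0.1. The strain comparisons, 4 against 3, cannot go below 0.0571 in this test. The deletion comparison of media can reach 0.0286, but these tests are too few among the 12 to pass after adjustment. The lack of a pass therefore does not show an unchanged balance. The log2 ratio of HMG1 over HMG2 was 0.77 ± 0.13 in wild-type glucose and 0.20 ± 0.15 in wild-type ethanol libraries (SD, n = 3 each), and 0.85 ± 0.14 and 0.22 ± 0.07 in deletion libraries (SD, n = 4 each). In both strains every ethanol library lay below every glucose library. The exact two-sided permutation test gave p = 0.1 in wild type, the smallest that 3 against 3 allows, and p = 0.0286 in the deletion, the smallest that 4 against 4 allows, or 0.171 and 0.114 after adjustment over 12 tests. UPC2 over ECM22 went from -0.82 to -1.53 in wild type and from -0.92 to -1.34 in the deletion, with the same p-values. ARE1 over ARE2 differed by -0.15 in wild type, within the spread of its libraries (exact permutation p = 0.5), and by -0.22 in the deletion, where the media did not overlap (exact permutation p = 0.0286, adjusted 0.114). Between strains in glucose, UPC2 over ECM22 was -0.92 in the deletion and -0.82 in wild type, and ARE1 over ARE2 was 0.83 and 0.57. For both ratios the strains did not overlap (exact permutation p = 0.0571, adjusted 0.137). HMG1 over HMG2 in glucose, and every ratio in ethanol, had an exact permutation p of 0.171 to 0.8 between strains.

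**Figure D4:**
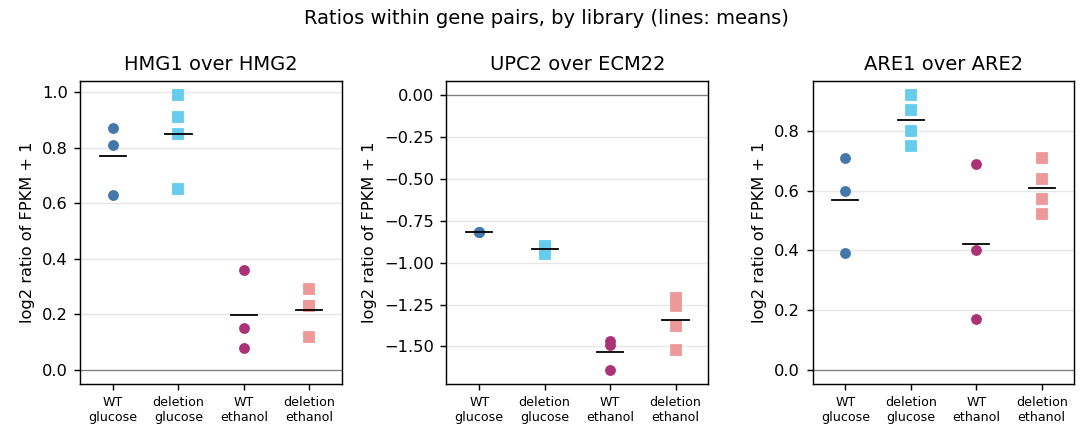
Log2 ratio of FPKM + 1 within 3 gene pairs, 1 point per library, with the group mean as a line. The ethanol libraries lie below the glucose libraries of the same strain for HMG1 over HMG2 and for UPC2 over ECM22; for ARE1 over ARE2 this holds in the deletion, and the wild-type groups overlap.

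The sterol response elements that Upc2 and Ecm22 bind were looked for in the sequence next to the genes. Windows of 300 bases, from 250 before to 50 after the start codon, were read from the RefSeq genome of the S288C assembly R64. Both strands were searched for TCGTATA and TCGTTTA, and for the consensus site of the heme regulator Hap1. TCGTTTA was found in 12 of 30 members, or 40%, and in 5.48% of 6001 windows of all genes. TCGTATA was found in 3 other members, or 10%, and in 4.15% of all windows, so no match of one element overlapped the other in a member. The Hap1 site was in no member and in 0.133% of all windows, a share so low that its absence from 30 windows says little. A match is a string of letters, not a bound site, and a window without one may have elements of other spelling or farther away.

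The window of ERG4 is shown because this gene rose most among those with a match. It holds a pair of TCGTTTA matches that face each other, at 220 and 208 bases before the start codon, given here in capitals (chrVII:472605-472904, plus strand of R64).
ERG4: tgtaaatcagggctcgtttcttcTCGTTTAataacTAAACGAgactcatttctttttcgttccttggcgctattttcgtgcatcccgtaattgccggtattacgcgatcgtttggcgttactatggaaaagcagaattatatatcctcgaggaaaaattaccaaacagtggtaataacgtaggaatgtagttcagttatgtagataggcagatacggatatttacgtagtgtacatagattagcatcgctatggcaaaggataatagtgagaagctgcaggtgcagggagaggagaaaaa

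Further matches are shown with 10 bases on either side because TCGTTTA stood before genes that rose and before genes that fell. The listed TCGTATA matches stood before genes that fell, while ERG8, the other member with TCGTATA, did not pass (-0.16). The match is in capitals and reads 5′ to 3′ on the strand named. The first 4 genes rose in wild-type ethanol and the last 5 fell, in the fit without further scaling. Of the first 4, ERG26 alone was called higher under all 3 scalings. With quantile normalization ERG20 and ERG9 were below 0 (-0.17 and -0.13).
ERG26 (chrVII:496650-496676, minus strand): tccctatagaTCGTTTAttgttctctc
ERG27 (chrXII:341684-341710, plus strand): ttatttatggTCGTTTAacgaaagaac
ERG20 (chrX:104813-104839, minus strand): acaaggcgttTCGTTTAgaaccgacga
ERG9 (chrVIII:484696-484722, minus strand): ttctcgctgcTCGTTTAggcactaaac
ARE1 (chrIII:211765-211791, plus strand): gtggttggacTCGTTTAgcgaacaata
NCP1 (chrVIII:190302-190328, plus strand): acgtgtgtgcTCGTTTAgcggtcaacc
MVD1 (chrXIV:701785-701811, plus strand): ccgaaatggcTCGTTTAgccttttctc
ERG13 (chrXIII:20620-20646, plus strand): ttcaacacacTCGTATAattaatagcc
ERG2 (chrXIII:667342-667368, plus strand): accacggcccTCGTATAagccgcaagg

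Of the 15 members with either element, 6 rose in wild-type ethanol, 6 fell and 3 did not pass, with a median log2 change of 0.03 and a range from -1.07 to 1.01. Of the 15 without, 2 rose, 8 fell and 5 did not pass, with a median of -0.18 and a range from -1.21 to 2.20. The members with the largest rise and the largest fall, ERG28 and ERG11, were both in the second group. With TCGTATA, 2 of 3 members fell and none rose, and with TCGTTTA 6 of 12 rose and 4 fell, or 50% and 33.3%, against 50.5% and 24.8% of all genes tested. These counts turned with the scaling. With median scaling 3 of the 15 members with an element were higher and 9 lower, against 1 and 13 of the 15 without, and for TCGTTTA alone 3 of 12 were higher and 6 lower. With quantile normalization 2 and 12 of the members with an element were higher and lower, against 1 and 13 without, and 2 and 9 for TCGTTTA alone.

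The same move was then followed in deletion cells, where 9 members rose, 16 fell and 5 did not pass. Among all genes tested 74.5% were called, 46.9% higher and 27.7% lower, and among the members 83.3%, 30% and 53.3%. All 22 members called in wild type were called the same way in the deletion, 73.3% of members against 68% of all genes tested. ERG8, ECM22 and ARV1 were called in the deletion alone, 10% against 6.56% of all genes, and ERG12, IDI1, ERG6, ERG3 and HES1 in neither strain, 16.7% against 18.2%. A called log2 change of at least 1 was found for ERG28 alone, 3.33% of members against 25.3% of all genes. The libraries of the 2 media did not overlap for 24 members, 80% against 69.3%. With median scaling 5 members were higher and 20 lower in deletion cells, where 36.6% of all genes were higher and 38.6% lower. With quantile normalization 3 members were higher and 24 lower, where 34.6% and 40.9% of all genes were.

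ERG28 was at 370.9, 385.9, 422.5 and 422 FPKM in deletion glucose libraries and at 1490, 1321, 1455 and 1217 FPKM in deletion ethanol libraries, a rise of 1.77 ± 0.08 (SE, limma adjusted p = 2.8e-10). ERG11 was at 986.3, 1041, 1023 and 966.7 FPKM and at 433.3, 524.8, 482.8 and 588 FPKM, a fall of 0.99 ± 0.08 (limma adjusted p = 8.6e-08). Replicate 4 was the ethanol library nearest to the glucose level for both genes, and the media did not overlap. ECM22 was at 37.4, 39.9, 41.0 and 35.6 FPKM in glucose and at 35.5, 30.1, 30.4 and 27.3 FPKM in ethanol, and fell by 0.31 ± 0.08 (limma adjusted p = 0.0022). Every ethanol library of ECM22 was below every glucose library, by a narrow margin for replicate 1. ARV1 was at 61.4, 57.7, 65.7 and 56.6 FPKM in glucose and at 60.2, 76.7, 75.5 and 77.6 FPKM in ethanol, and its call (0.26 ± 0.10, limma adjusted p = 0.026) was lost without replicate 4 in both media (0.19), without deletion ethanol replicates 2 and 4 (0.16), with median scaling (0.04), with the replicate number as a block (0.26, limma adjusted p = 0.052) and when deletion glucose replicate 2 or 4 or deletion ethanol replicate 2, 3 or 4 was left out (0.22 to 0.24).

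The deletion ethanol libraries were not alike. For each library, the change of each of the 22 members called in wild type was expressed as a percentage of the wild-type change, and the median was 95.3% in replicate 1, 80.9% in replicate 2, 89.3% in replicate 3 and 70.0% in replicate 4. Over all 4718 genes called in wild type the medians were 88.9%, 72.0%, 82.3% and 67.3%, in the same order of libraries. For 8 members, among them ERG11, ERG25, ERG2 and ARE1, the ethanol libraries ranked replicate 1, 3, 2 and 4 from low to high, and for 4, ERG12, ERG27, ERG28 and ECM22, the reverse. The remaining members, more than those named by these 2 orders, followed various other orders. The share of all genes with either order was not counted.

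The next question was whether loss of FPT1 itself altered the sterol genes. In glucose no member passed the limma test, and 0.0319% of all genes tested did. At an unadjusted p under 0.05 there was 1 member, ERG28, or 3.33%, against 11.5% of all genes tested. The estimates ran from -0.20 for ARE2 to 0.23 for ERG28, with 95% intervals that reached no further than -0.40 and 0.41, and 17 of 30 were above 0 (56.7%, against 73.2% of all genes). The groups did not overlap for 4 members, 13.3% against 17.7% of all genes tested. ERG28 and ECM22 were higher in all 4 deletion libraries than in any wild-type library, with limma adjusted p = 0.37 and 0.44. ARE2 was lower, at 46.7, 45.1, 42.2 and 44.2 FPKM against 49.2, 53.4 and 50.8 FPKM (limma adjusted p = 0.44), and so was ERG25 (limma adjusted p = 0.79).

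In ethanol no member passed either, again with 0.0319% of all genes called. An unadjusted p under 0.05 was found for 10 members, 33.3% against 24.1% of all genes tested. Those with higher estimates in the deletion were ERG11 (0.21), ERG25 (0.22), ERG5 (0.17), ARE1 (0.18) and ARV1 (0.24), and those with lower estimates were ERG28 (-0.20), ERG4 (-0.14), ERG9 (-0.14), ERG20 (-0.13) and ECM22 (-0.18), with limma adjusted p of at least 0.15. Only for ERG20 did the groups not overlap, 3.33% of members against 7.36% of all genes tested. All estimates lay between -0.20 and 0.24, and the intervals within -0.38 and 0.47. Without deletion ethanol replicate 1, limma called ERG11, ERG25 and ARV1 higher and ECM22 lower, 4 members in a setting that called 14.6% of all genes. Without wild-type ethanol replicate 3 it called ERG5, with 15.4% of all genes called.

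**Figure D5:**
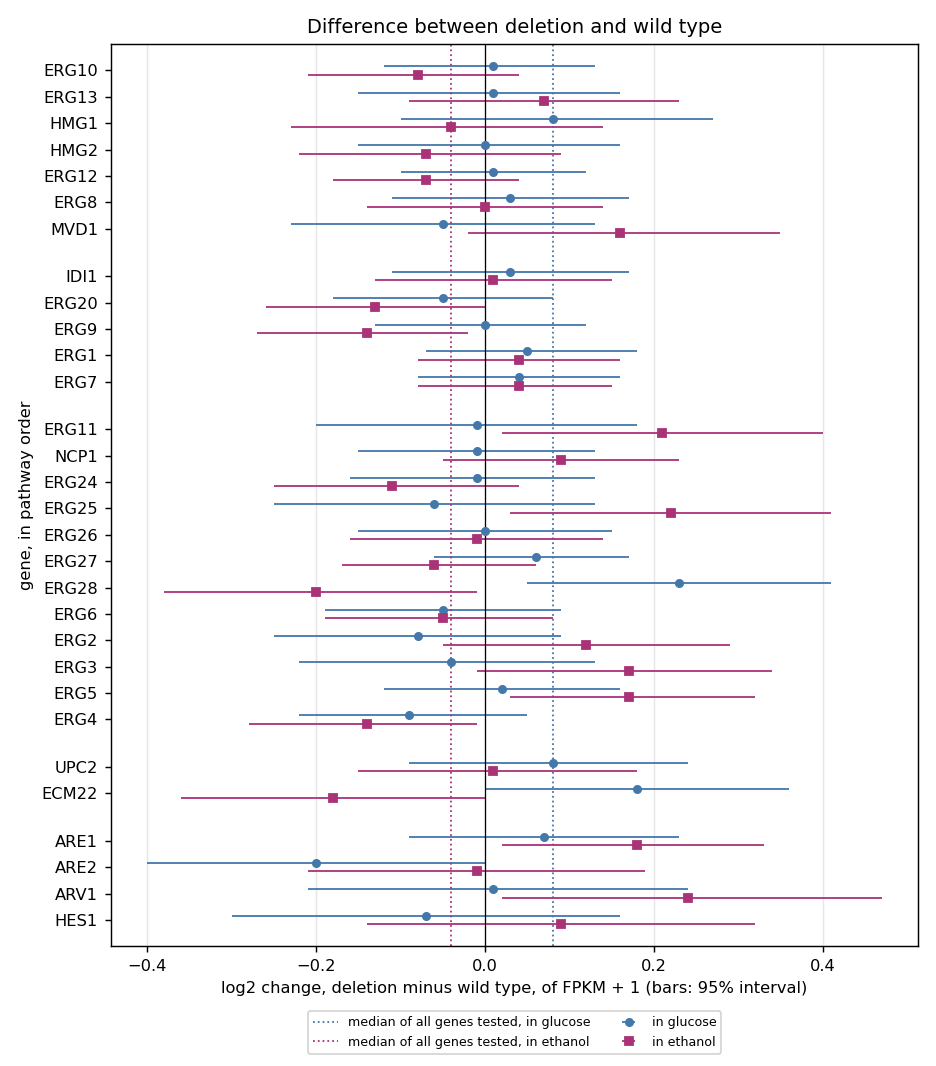
Log2 difference of FPKM + 1 between deletion and wild type for each gene, in glucose as circles and in ethanol as squares, with 95% intervals from limma; dotted lines are the medians of all genes tested, 0.08 in glucose and -0.04 in ethanol. All estimates lie within 0.24 of 0 and none passed the test.

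The difference between the ethanol responses of the 2 strains was tested directly, as deletion minus wild type. No member passed, and neither did any of the 6267 genes, so the share called was 0%. An unadjusted p under 0.05 was found for 3 members, 10% against 25.6% of all genes tested. These were ERG28 at -0.43 ± 0.12 (limma adjusted p = 0.13), ECM22 at -0.36 ± 0.12 (limma adjusted p = 0.14) and ERG25 at 0.28 ± 0.13 (limma adjusted p = 0.18). The median difference was -0.01 for the members and -0.12 for all genes. ERG28 was called without wild-type ethanol replicate 3 (-0.50, limma adjusted p = 0.034) and without deletion ethanol replicate 1 (-0.47, limma adjusted p = 0.031), and in the second case ECM22 too (-0.42, limma adjusted p = 0.026). Those settings called 10.4% and 13.5% of all genes.

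Genes around the pathway were read from 4 lists. In the list of sterol uptake and of hypoxic or sterol regulators, 7 of 15 genes fell in wild-type ethanol and 1 rose, or 46.7% and 6.67%, against 24.8% and 50.5% of all genes tested. TIR1, a cell wall protein of cells without oxygen, fell by 2.94, the sterol uptake regulator SUT1 by 1.01 and the repressor MOT3 by 1.00, while the cell wall gene DAN4 rose by 1.07. In deletion cells 8 fell and 1 rose, or 53.3% and 6.67%, against 27.7% and 46.9% of all genes tested. With median scaling 11 of 15, or 73.3%, were lower in each strain, against 37.7% of all genes in wild type and 38.6% in the deletion.

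Among 23 genes of sterol transport, ester hydrolysis and sterol acetylation, 13 rose and 7 fell in wild-type ethanol, and 13 rose and 9 fell in the deletion. The wild-type shares, 56.5% and 30.4%, were near the 50.5% and 24.8% of all genes tested. In the deletion the shares were 56.5% and 39.1%, against 46.9% and 27.7% of all genes tested. The sterol-binding secreted protein PRY1 went from 289 ± 36.0 to 853 ± 123 FPKM (SD, n = 3 each), a rise of 1.55. The vacuolar sterol carrier NPC2 rose by 1.51 and the oxysterol-binding family member OSH7 by 1.34. The ester hydrolases YEH1 and YEH2 fell by 1.31 and 1.10, in the same direction as the ester-forming ARE1 and ARE2, and the sterol acetyltransferase ATF2 fell by 0.91. With median scaling 12 were higher and 10 lower in wild type, 52.2% and 43.5% against 37.4% and 37.7% of all genes.

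Of 10 partners of the sterol enzymes and of their degradation machinery, 6 rose and 3 fell in both strains, 60% and 30%, near the shares of all genes tested (50.5% and 24.8% in wild type, 46.9% and 27.7% in the deletion). NSG2, a homologue of the mammalian sterol sensor partner Insig that binds HMG-CoA reductase, rose by 1.37 in wild type, and its paralogue NSG1 fell by 0.50. The heme-binding Erg11 partner DAP1 rose by 1.05 and the ubiquitin-conjugating enzyme UBC7 by 1.00. The electron carrier CYB5 fell by 0.96 and the ubiquitin ligase SSM4, which acts on Erg1, by 0.80. With median scaling 5 were higher and 4 lower in each strain, 50% and 40% against 37.4% and 37.7% of all genes in wild type.

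Of 18 genes of acetyl-CoA supply and isoprenoid branches, 9 rose and 4 fell in wild type, and 10 rose and 4 fell in the deletion. The wild-type shares, 50% and 22.2%, were near those of all genes tested, 50.5% and 24.8%. In the deletion the shares were 55.6% and 22.2%, against 46.9% and 27.7% of all genes tested. ACS1, the acetyl-CoA synthetase of cells without glucose, went from 6.69 ± 0.825 to 282 ± 75.9 FPKM (SD, n = 3 each), a rise of 5.16, whereas ACS2 did not pass at 0.04. The prenyltransferase genes BET2 and BET4 rose by 1.17 and 0.94. RER2, which draws on farnesyl pyrophosphate for dolichol, fell by 1.03, BTS1 by 0.55 and STE24 by 0.20. With median scaling 7 were higher and 8 lower in wild type, 38.9% and 44.4% against 37.4% and 37.7% of all genes. No gene of the 4 lists passed in either deletion comparison or in the difference of responses.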

How the data were processed

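The deposited values are in FPKM, calculated by the authors and given as 1 column for each sample. The submitters' processing notes name STAR 2.7.1a and the build sacCer3. Not given in the sources used here are the program behind the FPKM, the annotation, strand handling, filters and read depth. Non-zero values go down to 3.09e-25, so whole reads were not recovered and no count model was used. All columns belonged to a sample.

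Names and positions came from RefSeq R64, matched by systematic name for 5989 genes, with 675 unmatched. A gene was tested if it reached 1 FPKM in 3 or more samples (6267 genes, with 397 left out). Values were log2(FPKM + 1), a scale that understates changes of low genes. With limma 3.58.1 in R 4.3.3, 1 mean per group was fitted over 14 samples (empirical Bayes with a mean-variance trend), and each of 5 two-sided comparisons was adjusted by Benjamini-Hochberg. The fit was tested on simulated data. Pair ratios were compared by exact permutation tests (scipy 1.17.1). The series text calls replicates biological, but separate cultures are not stated, and the spread behind the p-values may be technical in part.

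The members and lists were chosen with earlier results of these data known. All members could be named. Values per sample were given for gene pairs and for the genes with the highest and lowest wild-type change in each role group, and up to 3 genes in each direction were named from each list. Per-sample values of ERG25, ERG26 and ERG4 were added after their values were seen. The alternatives were 2 pseudocounts, 2 filters, 2 scalings, replicate blocks, robust estimation, only the groups compared, and left-out libraries.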

Additional observations from a re-analysis of the deposited data

Results flagged for a closer look

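Each member was checked in both deletion groups for a library far from the other 3. Of 60 such sets, 3 were flagged, and chance flags about 1 in 20. ERG26 in deletion ethanol replicate 3 stood at 337 FPKM, with the lowest library at 288 FPKM. ARE2 in deletion ethanol replicate 4 stood at 28.6 FPKM, with the lowest at 25.3 FPKM. ARV1 in deletion ethanol replicate 1 stood at 60.2 FPKM, with the highest at 77.6 FPKM. Each flag comes from a different library.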

How the results depend on the processing

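The scaling between libraries moved the directions. In wild type, members higher and lower in ethanol were 8 and 14, but 4 and 22 with median scaling and 3 and 25 with quantile normalization. In the deletion 9 were higher, but 5 and 3. In wild type the log2 change turned below 0 with median scaling and quantile normalization for ERG10 (-0.09 and -0.32), ERG12 (-0.31 and -0.35), ERG9 (-0.01 and -0.13), ERG6 (-0.30 and -0.47), ECM22 (-0.28 and -0.27) and ARV1 (-0.29 and -0.29), and with quantile normalization for ERG20 (-0.17). In the deletion it did for ERG10 (-0.07 and -0.36), ERG9 (-0.05 and -0.18) and ERG6 (-0.20 and -0.39), and with quantile normalization for ERG20 (-0.15) and ERG3 (-0.33). These alternatives set the median or the whole distribution of each library equal, which removes the shift of all genes.

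Leaving out 1 library gave 20 to 22 members called in wild type (8 to 8 higher, 12 to 14 lower) and 24 to 26 in the deletion (7 to 10 higher, 16 to 17 lower). For deletion against wild type it gave 0 to 0 called in glucose and 0 to 4 in ethanol (0 to 3 higher, 0 to 1 lower), and 0 to 2 for the difference of responses, all lower (0 to 2). The settings that called members in these last 2 comparisons called 10.4% to 15.4% of all genes. With every library kept, ethanol against glucose called 75.3% of all genes in wild type and 74.5% in the deletion. For the other left-out libraries that share is not given here, so these counts show only how stable the calls were. Other calls that were lost without a single library were those of ERG1 in wild type (without wild-type glucose replicate 1 or 3, wild-type ethanol replicate 3, deletion glucose replicate 1, 2 or 3 or deletion ethanol replicate 2), of ERG7 in wild type (without wild-type glucose replicate 1 or wild-type ethanol replicate 2 or 3), and in the deletion of ARV1 and of ERG10 (without deletion glucose replicate 2 or 3 or deletion ethanol replicate 1). ERG8 in wild type, and ERG3 and IDI1 in the deletion, were called when a single library was left out. The causes were not tested. Without strain NKI5620, or without deletion ethanol replicates 2 and 4, no member was called in a deletion comparison. The share of all genes called in those settings is not given here.

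The labels do not say that a replicate number marks a shared culture. Deviations of same-numbered glucose and ethanol samples correlated at -0.42 to 0.17 over 7 pairs, 1 of them over 0.1, and those of wild-type and deletion samples at -0.26 to 0.32 over 6 pairs. A sample correlated best with its own number in 3 of 14 cases. With the replicate block by number, 21 members were called in wild type and 24 in the deletion, and by strain and number also 21 and 24, with 0 in the deletion comparisons that could be fitted. Shares of all genes called with these blocks are not given here. The ratio of UPC2 over ECM22 changed by -0.57 in wild type at pseudocount 5, against -0.71. All 30 genes lie at or above 9.97 FPKM, but read depth is unknown and sets a limit on the low genes UPC2 and HES1.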
